A study of Mus musculus with 16 samples.

Results

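Genes of marrow-derived, border and activated macrophages were followed in the hypothalamus of 16 mice, measured on 1-colour Agilent arrays with 1 animal per array. The list holds 39 genes. Of these, 38 had a probe on the array and 32 had a probe bright enough to be tested, among 24363 genes tested in all. The members were picked by name from earlier results on these same animals, so the difference between groups helped to choose them and is given here as a description.

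The mice comprised 8 KO chimeras and 8 controls. The KO chimeras were C57BL/6J mice exposed to 950 Rad, a lethal dose unless blood-forming cells are replaced, and then given whole marrow of Adrb1tm1BkkAdrb2tm1Bkk/J mice by 1 injection behind the eye. That donor strain lacks the beta-1 and beta-2 adrenergic receptors. The labels give a marrow ratio of 1 to 4 without saying what it counts, and a recovery of 2 to 3 months. All 16 labels carry the same irradiated strain and the same treatment text, while the KO chimeras alone have a field for the donor strain. Whether the controls were irradiated or given marrow is therefore not settled by the labels, and animals of 1 group may share donors. Age and sex are not described here. The study asks what loss of sympathetic drive does, and in these chimeras the receptor deletion lies in cells that grow from the grafted marrow. The cells of the mouse's own brain keep their receptors.

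Macrophages in the brain come in several kinds. Microglia live among the neurons and renew themselves, border macrophages sit in the meninges, around vessels and in the choroid plexus, and monocytes arrive from the blood. After lethal irradiation, cells grown from grafted marrow replace the blood and can settle in the brain, where they look like microglia but keep some genes of their own, of which Ms4a7 is a widely used one. Microglia that take up debris or lipid switch on another set, including Itgax, Clec7a, Cst7, Spp1 and Gpnmb. In whole tissue such as this, fewer cells of a type and less RNA per cell cannot be told apart.

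The probes that carried 3 of the genes discussed most are shown because their letters decide what the signal can measure. Each is 60 bases long and written in the sense of the transcript, and capitals mark the longest run shared with a probe of any other gene on the array. Positions follow the files and refer to the mm9 build. The Wfdc17 probe lies at chr11:83518443-83519627 on the plus strand and spans 1185 bases of the genome, so it crosses an intron. The Itgax probe lies at chr7:135294052-135294111 on the plus strand, and the Lyz2 probe at chr10:116719175-116719234 on the minus strand.
Wfdc17: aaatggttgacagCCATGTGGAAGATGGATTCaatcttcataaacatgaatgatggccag
Itgax: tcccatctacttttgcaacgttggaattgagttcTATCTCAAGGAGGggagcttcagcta
Lyz2: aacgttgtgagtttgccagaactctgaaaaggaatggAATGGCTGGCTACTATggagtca
The longest shared runs measured 19 bases for Wfdc17, 13 for Itgax and 16 for Lyz2. The Lyz1 and Lyz2 probes, which target a pair of neighbouring paralogs, shared no run longer than 6 bases. Cross-reaction between the 2 transcripts was not tested.

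Each array held 59305 spots other than controls, and 27276 (KO chimera 1) to 43248 (control 8) of them were well above background by the scanner's own call. Every value below is the log2 processed intensity of a probe minus the 75th percentile of its array, so 0 is the brightness of a fairly bright probe and each step of 1 is a doubling. A gene was tested where its probe was well above background on at least 8 of 16 arrays. Levels of different probes are not comparable with each other. The arrays lay on 6 slides, 5 of them with both groups, and scanning took 2 days, each with 4 KO chimeras and 4 controls. Of the 14 hypothalamic neuron genes listed, 13 were bright enough to test, among them Gal, Pomc and Ghrh. Between groups 0 of these 13 passed the test over all genes. Their median difference was 0.14, with summed linear levels of 363 to 742 in KO chimeras and 464 to 677 in controls. All 13 thalamic and all 9 choroid plexus and meningeal genes listed were also bright enough, so brightness alone does not tell these tissues apart. Of 13 thalamic genes tested, 2 were lower in KO chimeras, where 2.77% of all genes were lower. The thalamic genes had a median difference of −0.82, with sums of 32.9 to 61.8 in KO chimeras and 43.0 to 143 in controls. Of 13 oligodendrocyte genes, 4 were lower, with a median of −0.36 and sums of 185 to 341 in KO chimeras and 240 to 361 in controls. Of 6 red cell genes tested of 7, 1 was lower (Hbb-b2), with sums of 56.2 to 91.6 in KO chimeras and 68.9 to 118 in controls. The part of these tissues in the results below was not tested.

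The label of the list was borne out unevenly. The probes of Ccr2, the chemokine receptor of classical monocytes, and of Clec12a were well above background on 0 of 8 arrays in both groups. The same held for Cd163 and Cd209f, markers of border macrophages, while Lyve1 was above background on 1 KO chimera array and 0 control arrays. No probe was found for Ly6c2, which was not analysed here. Other markers could be measured. Of the 8 border macrophage genes 5 were tested, and Pf4 and Ms4a7 were well above background on 8 of 8 arrays in both groups. Of the 9 genes of the monocyte group 6 were tested. Whether activated microglia, border macrophages or marrow-derived cells carried the signal of the measured genes was not tested.

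Of the 32 members tested, 6 were lower in KO chimeras (limma, adjusted p below 0.05 over all genes) and 0 were higher. Among all 24363 genes, 3.8% passed this test, 2.77% as lower and 1.03% as higher, and since the members were chosen with this contrast known, nothing is read from their share. The 6 were Wfdc17, Itgax, Ccl6, Cd68, Emilin2 and Rab7b. The median difference over the tested members was −0.25, against 0.00 over all genes. On the low side were 27 of the 32 members (84.4%), against 50% of all genes. In Cd68 alone of the members the groups did not overlap, against 0.965% of all genes in either direction and 0.85% with the KO chimeras below. These medians and counts leave out the 6 members whose probes were too dim, and a gene seen in 1 group only could enter the test through that group.

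**Figure D1:**
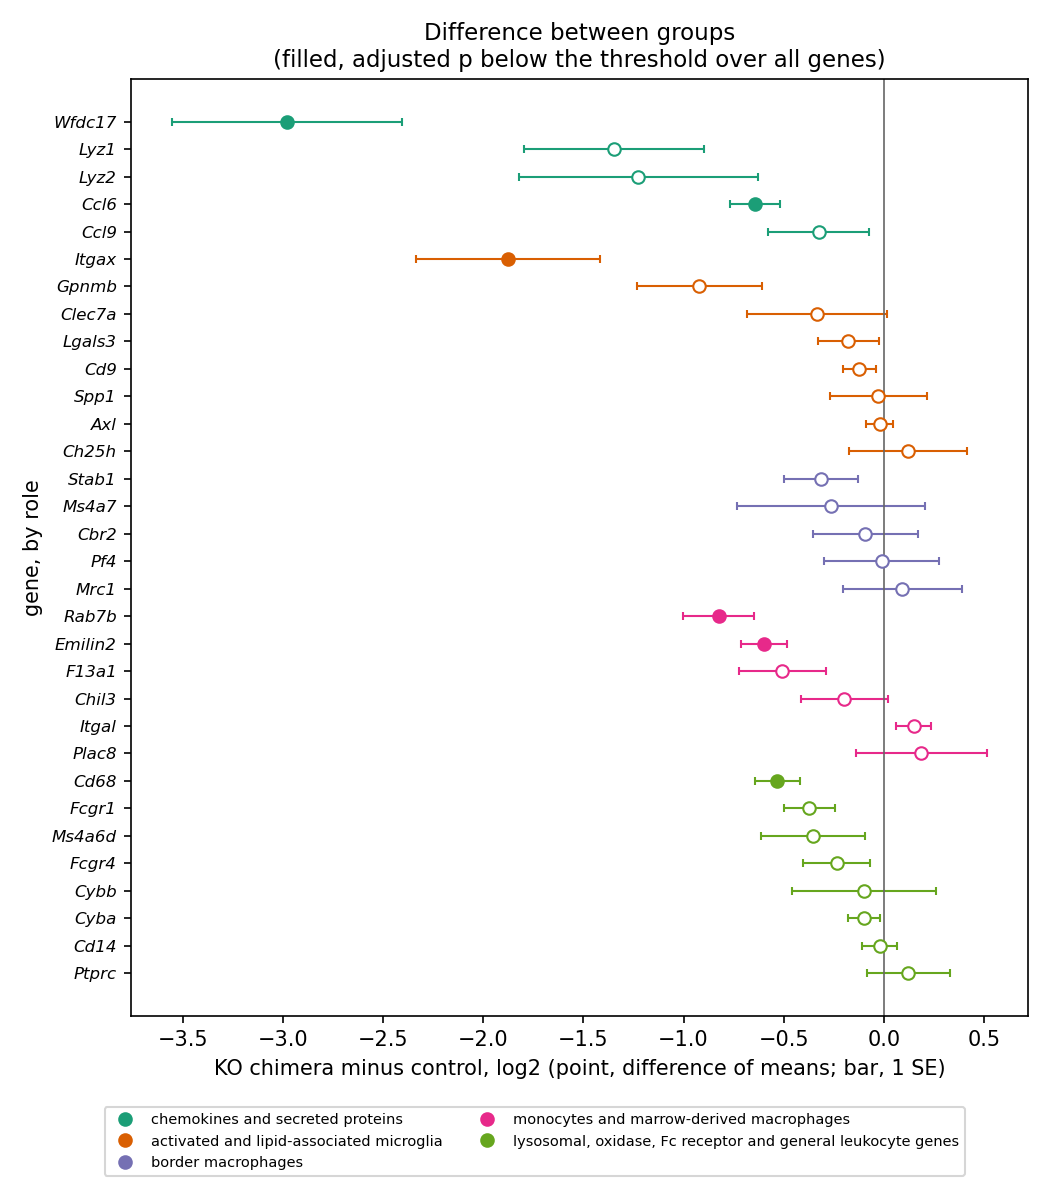
Difference between group means for each tested macrophage gene, as log2 in KO chimeras minus log2 in controls (points) with 1 standard error (bars), 8 animals per group. Colours give the role of the gene and filled points passed the test over all genes; the 6 filled points all lie left of 0, with Wfdc17 farthest out at −2.98.

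Among the secreted proteins, Wfdc17 had the widest gap of all members. It encodes a small protein with a whey acidic protein domain that mouse macrophages and activated microglia secrete. Its values in KO chimeras had a lowest of −6.41, a median of −4.55 and a highest of −3.95, against a lowest of −4.70, a median of −1.23 and a highest of 0.16 in controls. The means were −4.83 ± 0.87 in KO chimeras and −1.85 ± 1.54 in controls (SD, n = 8 each), a difference of −2.98 ± 0.57 (SE), or 7.90-fold on the intensity scale. The groups overlapped through 1 animal, control 2, at −4.70. The probe was well above background on 4 of 8 KO chimera arrays and 7 of 8 control arrays, so the low end of the KO chimeras is imprecise and the fold change depends on the background correction. With normexp correction and an offset, which compresses dim signals, the difference was −1.16 and still passed.

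The lysozyme genes Lyz1 and Lyz2 were lower by less and did not pass the test. Lysozyme breaks bacterial cell walls; in mice Lyz2 is the gene of macrophages and granulocytes, and Lyz1 is best known from Paneth cells of the gut. Lyz1 averaged 0.37 ± 0.23 in KO chimeras and 1.72 ± 1.36 in controls, with ranges of 0.13 to 0.80 in KO chimeras and −0.88 to 3.48 in controls. Lyz2 averaged −2.68 ± 0.37 in KO chimeras and −1.45 ± 1.80 in controls. In both genes all 8 KO chimeras lay inside the range of the controls, and the controls were split: control 1 lay among the KO chimeras and control 2 below them, while the other 6 controls lay above all KO chimeras. For Lyz2, KO chimeras ran from −3.29 to −2.25. Controls 1 and 2 were at −2.60 and −5.30, and the other 6 between −1.37 and 0.41. The differences, −1.35 ± 0.45 for Lyz1 and −1.23 ± 0.60 for Lyz2, depended on control 2. Without it they were −1.72 and −1.78, and both genes passed the test.

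Ccl6 and Ccl9 encode CC chemokines made by mouse myeloid cells. Ccl6 was lower in KO chimeras, at −3.55 to −2.77 with a median of −3.15, against −2.80 to −2.10 with a median of −2.56 in controls. Here the controls were tight, and the groups touched only at 1 KO chimera, number 5, at −2.77 beside controls 7 and 3 at −2.80 and −2.77. The difference was −0.64 ± 0.12, but −0.22 with normexp correction, where Ccl6 no longer passed. It was −0.97 within scan day 1 and −0.32 within scan day 2. Ccl9 averaged −3.74 ± 0.50 in KO chimeras and −3.41 ± 0.58 in controls and did not pass.

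Itgax, which encodes the integrin chain CD11c of dendritic cells and activated microglia, stood out among the activation genes. It ran from −7.43 to −4.40 with a median of −5.18 in KO chimeras, against −5.07 to −1.72 with a median of −3.69 in controls. The means were −5.48 ± 0.95 in KO chimeras and −3.60 ± 1.05 in controls, a difference of −1.88 ± 0.46. The probe was well above background on 1 of 8 KO chimera arrays and 7 of 8 control arrays, exactly the 8 arrays that the filter asked for, so the gene was tested on the strength of its controls. Its call and the size of its difference thus rest on KO chimera values that lie at background. With normexp correction the difference was −0.38 and did not pass, and with slide fitted as a fixed term it was −1.58 and again did not. It also missed the threshold when any 1 of controls 3, 5, 7 and 8 or KO chimeras 2, 3, 4, 6 and 8 was left out, with differences between −1.94 and −1.60.

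Cst7, which encodes the protease inhibitor cystatin F and marks the same microglial state, fell just outside the filter, with 1 KO chimera array and 6 control arrays above background. It averaged −5.34 ± 0.68 in KO chimeras and −4.20 ± 0.61 in controls. Gpnmb, a transmembrane glycoprotein of lipid-laden macrophages, just passed the filter with 2 KO chimera and 6 control arrays. Its values were −5.66 to −4.66 in KO chimeras, against −5.16 to −2.45 in controls, and its difference of −0.92 ± 0.31 did not pass. The highest Gpnmb value was that of control 6.

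The other activation genes differed by less. Clec7a, the receptor Dectin-1 that binds fungal glucans, differed by −0.33 ± 0.35. Lgals3, which encodes galectin-3, differed by −0.18 ± 0.15, and Cd9, a tetraspanin, by −0.12 ± 0.08. Spp1 (osteopontin), Axl, a receptor for apoptotic cells, and Ch25h, the enzyme that makes 25-hydroxycholesterol, had differences of −0.03 ± 0.24, −0.02 ± 0.07 and 0.12 ± 0.30. None of these 6 passed.

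Of the 5 border macrophage genes tested, 0 passed. Ms4a7, a four-span membrane protein, differed by −0.26 ± 0.47, Stab1, a scavenger receptor, by −0.31 ± 0.18, and Pf4, the chemokine CXCL4, by −0.01 ± 0.29. Mrc1, the mannose receptor CD206, and Cbr2, a carbonyl reductase, differed by 0.09 ± 0.30 and −0.09 ± 0.26. A second Cbr2 probe gave 0.10. For these genes the group means were close, while the single animals were not, as described below.

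In the monocyte group, 2 of 6 tested genes were lower. Emilin2 encodes a secreted matrix glycoprotein. It ran from −1.47 to −1.06 with a median of −1.36 in KO chimeras, against −1.21 to −0.21 with a median of −0.72 in controls, a difference of −0.60 ± 0.11. Rab7b encodes a small GTPase of late endosomes and lysosomes and ran from −4.93 to −3.68 with a median of −4.27 in KO chimeras, against −3.89 to −2.85 with a median of −3.54 in controls. In Emilin2 the groups overlapped where KO chimeras 3, 4 and 7, at −1.06, −1.17 and −1.20, lay above control 2 at −1.21. In Rab7b, KO chimera 4 at −3.68 lay above controls 1 and 3 at −3.89 and −3.83. The Rab7b difference of −0.82 ± 0.18 was −0.14 with normexp correction and then did not pass, whereas Emilin2 passed there at −0.41. F13a1, the A chain of clotting factor XIII, differed by −0.51 ± 0.22 and Chil3, a chitinase-like protein of activated macrophages, by −0.20 ± 0.22, while Itgal, the alpha chain of LFA-1, and Plac8 were at 0.15 ± 0.09 and 0.19 ± 0.33. None of these 4 passed. A second Itgal probe that met the filter gave −0.08, and a second Plac8 probe gave 0.20.

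Among the lysosomal, oxidase and receptor genes, Cd68 passed. It encodes a lysosomal glycoprotein of macrophages and microglia, and its 8 KO chimeras, at −0.46 to 0.05, all lay below its 8 controls, at 0.15 to 0.98. The difference was −0.53 ± 0.11, and a dimmer second probe gave −0.51. In a fit over all probes neither probe passed. Cd68 held its call with normexp correction at −0.43 and lost it with slide fitted as a fixed term (−0.51) and with its 2 probes averaged (−0.52). The high-affinity Fc receptor gene Fcgr1 differed by −0.37 ± 0.13, Fcgr4 by −0.24 ± 0.17 and Ms4a6d by −0.35 ± 0.26. The NADPH oxidase chains Cyba and Cybb differed by −0.10 ± 0.08 and −0.10 ± 0.36, the lipopolysaccharide co-receptor Cd14 by −0.02 ± 0.09, and Ptprc, the common leukocyte antigen CD45, by 0.12 ± 0.21. None of these 7 passed.

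Within the 5 slides that held both groups, Wfdc17 was lower in KO chimeras on each, by differences between −4.85 and −1.16, and Itgax by −2.23 to −0.81. Cd68, Emilin2 and Rab7b were lower on all 5 as well, at −0.95 to −0.18, −0.99 to −0.28 and −1.65 to −0.59, and Ccl6 at −1.09 to −0.02. The lysozymes were not lower on every slide. Lyz1 differed by −2.38 to −2.0 on slides 3, 4 and 5, but by −0.08 and −0.16 on slides 1 and 6, which hold controls 1 and 2. Lyz2 differed by −3.0 to −1.69 on slides 3, 4 and 5 and by 0.20 and 0.33 on slides 1 and 6. Several of these values set 1 animal against 1, and they carry no test.

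**Figure D2:**
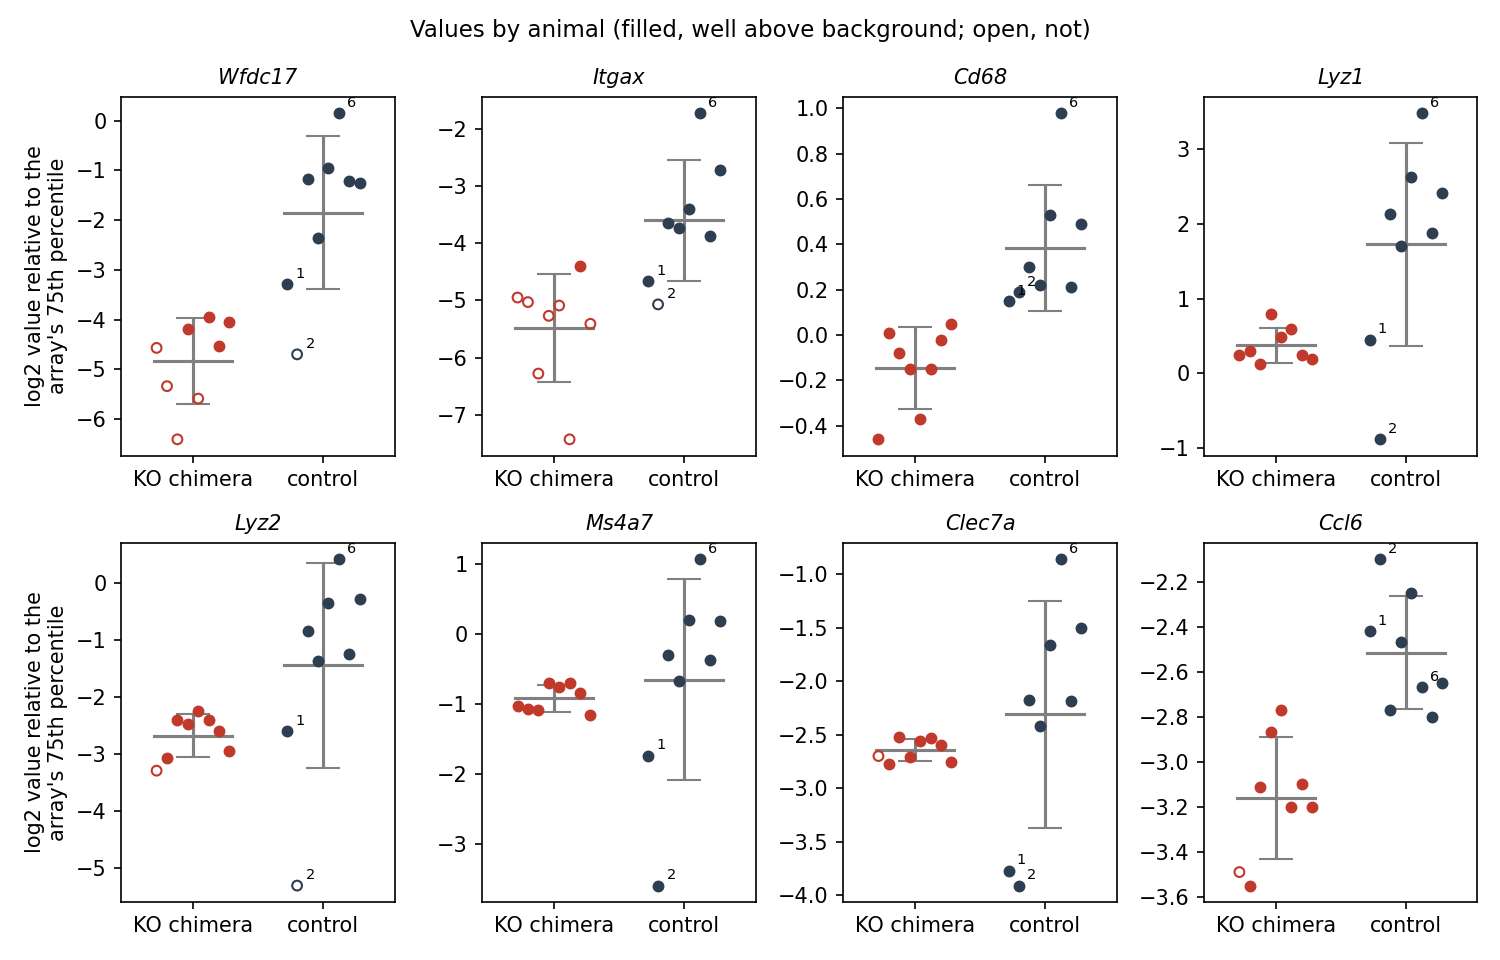
Log2 values of 8 genes relative to the 75th percentile of the array, for each KO chimera and each control (points), with the group mean and SD (grey, n = 8 each). Filled points were well above background and open points were not; numbers mark controls 1, 2 and 6. In each gene shown except Ccl6, controls 1 and 2 are the lowest controls and control 6 is the highest.

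The spread between animals differed between the groups in many of these genes, and it is given as a description without a test. The genes and animals singled out here were chosen after their values were seen. Clec7a had an SD of 0.10 in KO chimeras and 1.06 in controls, a ratio of 10.3. Its 8 KO chimeras lay between −2.77 and −2.52, in a gap of the control distribution: controls 1 and 2 were at −3.77 and −3.91, and the other 6 controls between −2.42 and −0.86. Ms4a7 had the same layout, with KO chimeras at −1.16 to −0.70, controls 1 and 2 at −1.74 and −3.60, and the other 6 controls between −0.68 and 1.07. Its SD was 0.19 in KO chimeras and 1.44 in controls.

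The SD in controls was at least 2 times that in KO chimeras in 8 of 32 members (25% of them), namely Lyz1, Lyz2, Ms4a7, Clec7a, Gpnmb, Mrc1, Pf4 and Stab1. The share over all genes tested was 4.59%. Spread ran the other way in Fcgr1 and Fcgr4 (6.25% of members), where the SD in KO chimeras was at least 2 times that in controls. The share over all genes was larger, at 9.97%. In both genes KO chimera 1 stood apart as the lowest, at −3.62 and −5.00, with the next KO chimera at −2.98 and −4.17. Its array had the fewest spots well above background. In 10 of 32 members (31.2%) all KO chimeras lay inside the control range, against 12.7% of all genes. The median ratio of the 2 SDs, control over KO chimera, was 1.15 in the members and 0.91 in all genes. The SD was larger in controls in 19 of 32 members (59.4%) and in 42.3% of all genes.

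**Figure D3:**
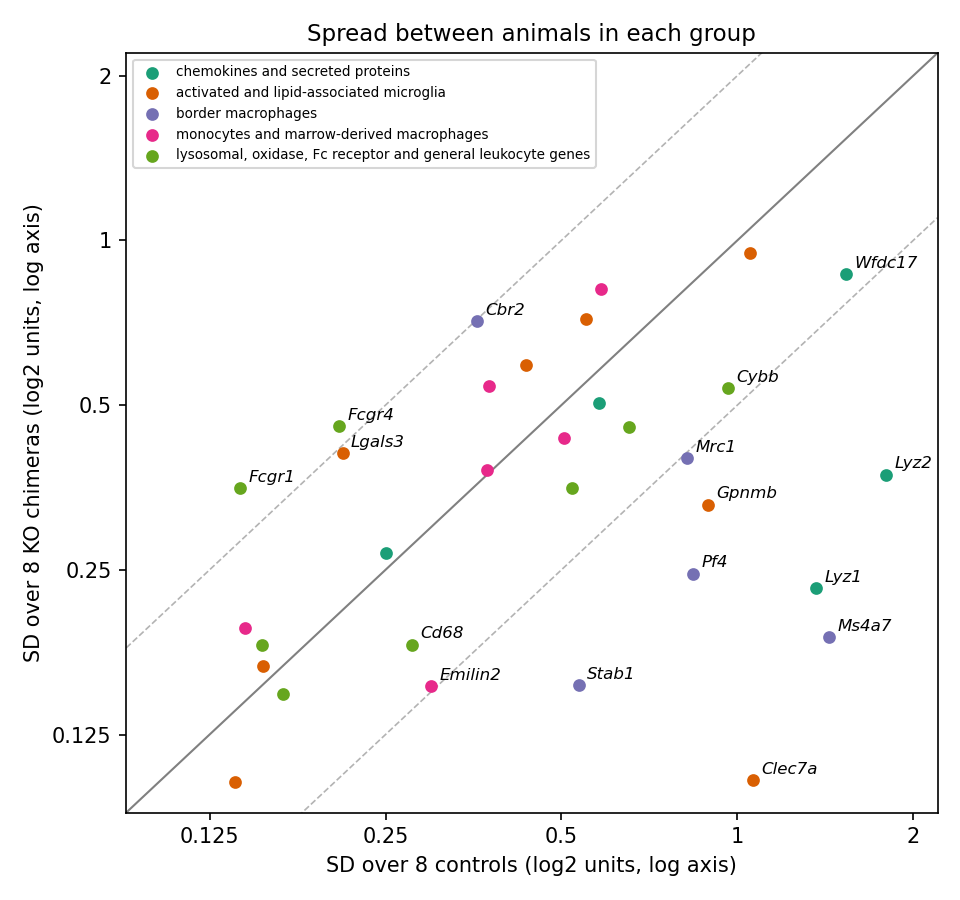
Standard deviation over 8 KO chimeras (vertical) against that over 8 controls (horizontal) for each tested macrophage gene, in log2 units on log axes. The solid line marks equal spread and the dashed lines a ratio of 2; 8 genes lie below the lower dashed line, with Clec7a at 0.10 in KO chimeras and 1.06 in controls.

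The same animals made the spread in gene after gene. Controls 1 and 2 were the 2 lowest controls in 13 of 32 members (40.6%) and in 3.91% of all genes. The 13 were Wfdc17, Itgax, Cd68, Lyz1, Lyz2, Ms4a7, Ms4a6d, Clec7a, Cybb, Mrc1, Pf4, Stab1 and Emilin2. Control 6 was the highest control in 14 members (43.8%) and in 10.6% of all genes. Controls 1 and 2 were scanned on different days and lay on different slides. Their labels carry the same text as those of the other 6 controls. Since the labels do not settle how the controls were treated, they also do not settle whether all 8 were treated alike, on which the meaning of the control means, SDs and correlations depends. Both animals stayed in the comparisons, apart from those that leave out animals by name.

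Not every member moved with these animals. In controls 1 and 2, Ccl6 stood at −2.42 and −2.10 and Ccl9 at −3.24 and −2.49, both in the upper part of the control range, and Cd9 at 2.50 and 2.71 was highest there. Ptprc followed them in part: control 2 was the lowest control at −4.90, while control 1 at −3.72 lay among the other 6, at −4.32 to −3.39. Homeostatic microglial genes, whose protein products are typical of resting microglia, were summed as well, a measure that the brightest genes dominate. Their summed linear level was 225 to 322 in KO chimeras and 208 to 287 in controls, with 274 and 272 in controls 1 and 2. Fcrls, a gene of that list looked at after its values were seen, was low in control 2 at −1.36, while control 1 was at −0.49 and the other 6 between −0.59 and 0.17. The summed level of the border macrophage members was 1.2 to 1.71 in KO chimeras and 0.62 to 3.86 in controls, with 0.97 and 0.62 in controls 1 and 2. Genes of the choroid plexus and meninges, where border macrophages live, summed to 5.53 to 47.3 in KO chimeras and 4.99 to 57.9 in controls, with 6.17 and 5.48 in controls 1 and 2. Red cell genes summed to 87.0 and 118 in controls 1 and 2. The part of these tissues in the spread was not tested.

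**Figure D4:**
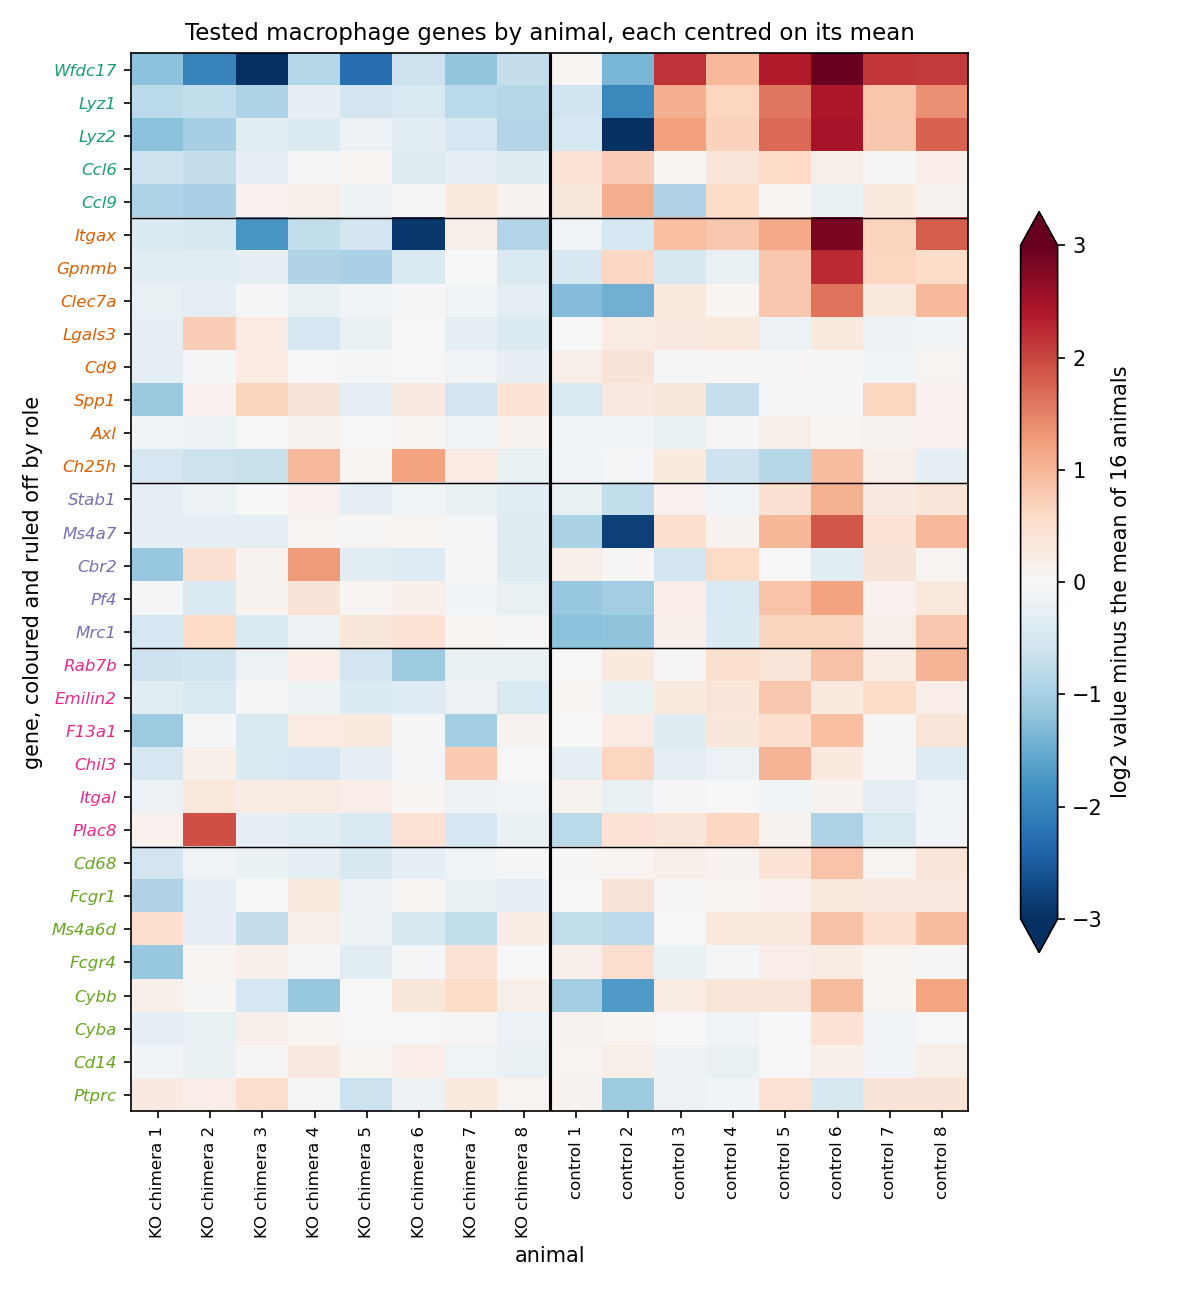
Values of the 32 tested macrophage genes (rows, ruled off by role) in each of 8 KO chimeras and 8 controls (columns), as log2 value minus the gene's mean over 16 animals; red is above and blue below that mean, and colours stop at 3 either way. Wfdc17, Lyz1, Lyz2, Itgax, Clec7a and Ms4a7 share a pattern in which controls 1 and 2 are pale or blue and control 6 is the darkest red.

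Relations between genes were then followed within each group, where the difference between groups plays no part. Over the 496 pairs of tested members the median Pearson correlation was 0.12 in KO chimeras and 0.15 in controls, and that of members with all other genes was 0.03 in KO chimeras and −0.03 in controls. Pairs above 0.5 made up 20.2% in KO chimeras and 29.8% in controls, against 12.5% in KO chimeras and 12% in controls for pairs of a member with another gene. With the means of group and slide removed over all 16 animals, the median was 0.25 for member pairs and −0.01 for members with other genes. Against the mean of the other members, 7 of 32 genes had a correlation above 0.5 in KO chimeras and 17 in controls. In controls Clec7a came highest at 0.99, while Cd9, Ccl9 and Ccl6 ran opposite at −0.73, −0.57 and −0.53. These correlations share arrays and are given as a description.

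Among 6 pairs chosen for their biology with earlier results known, 12 correlations were tested by an exact two-sided permutation test with Benjamini-Hochberg adjustment over the 12. That adjustment does not cover the choice of members and pairs, so the p-values are not independent support. The pair Mrc1 and Cd163 could not be tested, because Cd163 was too dim. Of the 6 correlations in KO chimeras 0 passed, and of the 6 in controls 3 passed. Lyz1 and Lyz2 correlated at 0.46 in KO chimeras (adjusted permutation p = 0.391) and at 0.98 in controls (adjusted permutation p = 0.000595). Their Spearman coefficients were 0.31 in KO chimeras (adjusted permutation p = 0.554) and 0.98 in controls (adjusted permutation p = 0.00238). Wfdc17 and Ms4a7 correlated at 0.32 in KO chimeras (adjusted permutation p = 0.534) and 0.98 in controls (adjusted permutation p = 0.000893), with Spearman coefficients of 0.36 (adjusted permutation p = 0.554) and 0.93 (adjusted permutation p = 0.00893).

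Itgax and Clec7a correlated at −0.50 in KO chimeras (adjusted permutation p = 0.391) and 0.95 in controls (adjusted permutation p = 0.000893), with Spearman coefficients of −0.40 (adjusted permutation p = 0.554) and 0.98 (adjusted permutation p = 0.00238). For KO chimeras most Itgax values lay at background, and with normexp correction that correlation turned to 0.93 (adjusted permutation p = 0.00714). Whether the correlations differ between groups was not tested. Without the 2 animals farthest from the median of the first gene, the 3 correlations in controls were 0.97 for Lyz1 and Lyz2 (adjusted permutation p = 0.025), 0.93 for Itgax and Clec7a (adjusted permutation p = 0.025) and 0.92 for Wfdc17 and Ms4a7 (adjusted permutation p = 0.0611, no longer past the threshold). The Spearman coefficients were then 0.94 for Lyz1 and Lyz2 and for Itgax and Clec7a (adjusted permutation p = 0.1 each). For Wfdc17 and Ms4a7 the coefficient was 0.83 (adjusted permutation p = 0.14), and none of the 3 passed. For Lyz1 and Wfdc17 the 2 animals left out were controls 1 and 2. The remaining 6 controls of these 2 pairs include control 6, the highest control in each of their genes. A scan day held 4 animals of a group, too few for a correlation of its own, and with the day means removed Lyz1 and Lyz2 were at −0.12 in KO chimeras and 0.98 in controls, Itgax and Clec7a at −0.17 in KO chimeras and 0.95 in controls, and Wfdc17 and Ms4a7 at 0.61 in KO chimeras and 0.98 in controls.

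The other 3 pairs did not pass in either group. Ccl6 and Ccl9 correlated at 0.74 in KO chimeras (adjusted permutation p = 0.142) and 0.68 in controls (adjusted permutation p = 0.142). Cyba and Cybb, whose products form 1 membrane complex, were at −0.47 in KO chimeras (adjusted permutation p = 0.391) and 0.12 in controls (adjusted permutation p = 0.831). Cd68 and Ptprc were at 0.41 in KO chimeras (adjusted permutation p = 0.423) and −0.05 in controls (adjusted permutation p = 0.894).

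**Figure D5:**
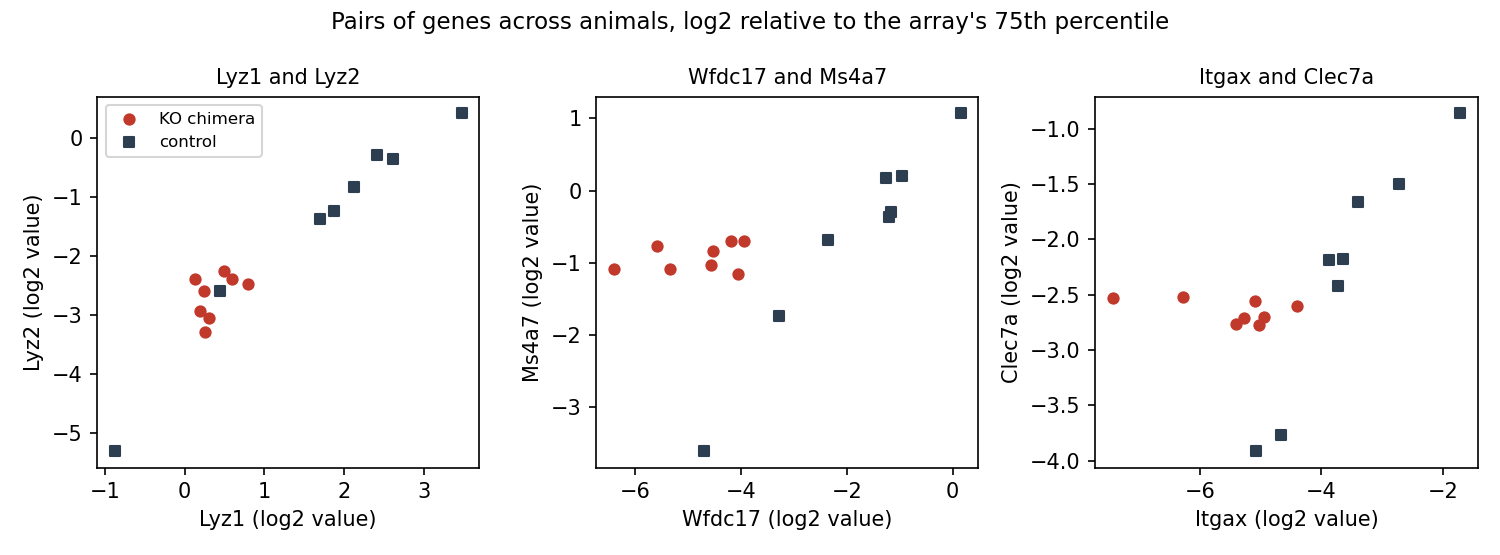
Log2 values of 3 pairs of genes in each KO chimera (red circles) and each control (dark squares), relative to the 75th percentile of the array. Controls form a line in each panel, with correlations of 0.98, 0.98 and 0.95, and the KO chimeras lie in a narrow band on the vertical axis in the panels of Ms4a7 and Clec7a.

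The genes that varied most like Wfdc17 over all 16 animals, with group means removed, included 6 members: Lyz1 at a correlation of 0.88, Ms4a7 at 0.86, Clec7a at 0.81, Pf4 and Lyz2 at 0.80 and Stab1 at 0.79. Among the 5 genes outside the list with the highest correlation, 2 had a gene symbol, Gpr65 at 0.87 and Atf7 at 0.86. Gpr65 encodes a proton-sensing receptor of leukocytes and Atf7 a transcription factor. Gpr65 averaged −3.20 ± 0.19 in KO chimeras and −3.27 ± 1.08 in controls, with −4.09 and −5.40 in controls 1 and 2 and −3.67 to −2.06 in the other 6. Lilrb4a, an inhibitory receptor of myeloid cells named after its values were seen, averaged −3.53 ± 0.50 in KO chimeras and −2.71 ± 1.60 in controls. Its controls 1 and 2 were at −3.64 and −6.24 and the other 6 at −2.54 to −1.17. KO chimeras ran from −4.13 to −2.82, so control 1 lay among them.

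The upstream sequences of Lyz1, Lyz2 and Ms4a7 are shown because these 3 genes varied together so closely across the controls. They are the 250 bases before the transcript start in RefSeq (GRCm38.p6), 5′ to 3′ along the gene, for Lyz1 chr10:117292869-117293118, for Lyz2 chr10:117282273-117282522 and for the first of 2 starts of Ms4a7 chr19:11336147-11336396, all on the minus strand. The second Ms4a7 start, at chr19:11334696-11334945, is not shown and holds no match to the motif. Capitals mark GGAAGT read on either strand (ACTTCC on the other), the core bound by ETS-family factors, which include the myeloid regulator PU.1.
Lyz1: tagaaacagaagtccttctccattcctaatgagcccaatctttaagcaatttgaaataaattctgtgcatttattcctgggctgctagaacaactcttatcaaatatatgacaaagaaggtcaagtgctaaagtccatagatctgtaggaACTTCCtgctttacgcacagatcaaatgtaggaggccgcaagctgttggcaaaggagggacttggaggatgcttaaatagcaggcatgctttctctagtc
Lyz2: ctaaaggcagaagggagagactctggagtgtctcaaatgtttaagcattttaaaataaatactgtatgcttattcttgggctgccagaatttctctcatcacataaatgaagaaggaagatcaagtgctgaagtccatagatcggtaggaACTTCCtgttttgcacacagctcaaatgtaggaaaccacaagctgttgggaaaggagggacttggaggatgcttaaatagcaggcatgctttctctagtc
Ms4a7: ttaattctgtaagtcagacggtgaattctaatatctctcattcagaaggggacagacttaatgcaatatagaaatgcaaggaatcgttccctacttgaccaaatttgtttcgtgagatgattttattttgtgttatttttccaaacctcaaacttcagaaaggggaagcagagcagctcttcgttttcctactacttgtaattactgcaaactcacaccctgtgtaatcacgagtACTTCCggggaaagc
The Lyz1 and Lyz2 stretches matched at 200 of 252 aligned positions (79.4%), and both carry the motif at the same distance from the start. In windows of 250 bases before the start, GGAAGT on either strand occurred in 17 of 40 promoters of members (42.5%, 16 of the 33 members with a promoter in the table) and in 19.7% of all 32851 promoters. The longer form GAGGAAGT, which contains it, occurred in 3 of 40 promoters of members (7.5%), those of Fcgr4, Pf4 and Spp1, and in 2.44% of all. Members with the shorter form included Itgax, Mrc1 and Pf4, which correlated with Lyz1 in controls at 0.92, 0.91 and 0.92. They also included Ccl6 and Ccl9, at −0.62 and −0.70. Wfdc17 and Clec7a, at 0.98 and 0.97, were not among them. Whether a match goes with shared variation was not tested. A match describes letters in this window and says nothing of binding.

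Related genes outside the list were compared in the same fit. Over all genes 3.8% were called, so a single call in a short list is not read as a result about that list. Of 20 homeostatic microglial genes tested, 3 were lower in KO chimeras and 0 higher, and the median difference was −0.21. The lower ones included Trem2, a lipid-sensing receptor, at −0.42 ± 0.09 (limma adjusted p = 0.0216), and C1qc, a chain of complement C1q, at −0.36 ± 0.09 (limma adjusted p = 0.0429). In Trem2, KO chimeras ran from 1.02 to 1.35 and controls from 1.41 to 2.06, without overlap, as in 0.965% of all genes. Of 15 other activation genes tested of 19, 1 was lower, the small surface protein Cd52 at −0.48 ± 0.12 (limma adjusted p = 0.0376). Plin2, a coat protein of lipid droplets, was at 0.30 ± 0.10 and Ctsb, cathepsin B, at −0.16 ± 0.07, and neither passed.

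Of 17 other border macrophage and monocyte genes tested of 21, 1 was higher and 0 lower, against 1.03% and 2.77% of all genes. That gene was Siglec1, the sialic acid receptor CD169, at 0.71 ± 0.17 (limma adjusted p = 0.0353), with 6 KO chimera and 2 control arrays above background. It reached the filter through the KO chimeras, and its size rests on control values mostly at background. Ahr, the aryl hydrocarbon receptor, was at −0.31 ± 0.09 and Clec4n (Dectin-2) at −0.63 ± 0.23, and neither passed. Of 10 genes of the NADPH oxidase and of macrophage transcription tested of 12, 0 passed, with a median of −0.12.

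Dendritic cell, neutrophil and lymphocyte genes showed 0 calls. Of 6 dendritic cell genes tested of 9, the class II genes H2-Ab1 and H2-Aa and the invariant chain Cd74 differed by 0.61 ± 0.28, 0.67 ± 0.40 and 0.46 ± 0.32. The summed level of that list was 2.18 to 3.86 in KO chimeras and 1.23 to 3.79 in controls. Of 5 neutrophil genes tested of 11 and 5 lymphocyte genes tested of 10, 0 passed, and S100a8, Retnlg, Ngp, Ltf, Mmp8 and Cxcr2 of the first list and Cd3d, Cd3g, Cd8a, Cd79b and Ms4a1 of the second did not reach the filter. Astrocyte, endothelial and choroid plexus lists likewise held 0 calls among 8, 7 and 9 genes tested.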

How the data were processed

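Total RNA of hypothalamus (Trizol, per the labels' protocols) carried Cy3, and each animal had an Agilent array of its own. The authors deposited the scanner's processed intensity per spot, background-subtracted on a linear scale, made with Agilent Feature Extraction, which is version 10.7 in the submitters' processing notes and 10.1.1.1 in the file headers. The authors' second deposited file is a log2 table whose direction and scale follow the scanner's log2 values (correlation at least 0.9996, slope 0.9785 to 1.025, array medians 5.21 to 5.26, floor 2.2) and whose between-array step and centring are not given in the sources used here.

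Groups came from the labels. The KO chimera whose title spells KO with a zero was grouped by its source name. After control and outlier spots were dropped, log2 intensities were set relative to the 75th percentile of their array, and replicate spots were averaged. A probe was kept if at least 8 arrays had it well above background (35144 probes), and the brightest probe of each gene was tested (24363 genes, 16881 with a symbol) with limma 3.58.1 in R 4.3.3 (lmFit, eBayes), Benjamini-Hochberg adjustment and a threshold of 0.05. Summed list levels add linear values over the tested genes. Names came from a RefSeq accession for 28026 probes, a current symbol for 3418 and an older one for 295, while 23942 probes have the files' own name. Rab7b was found under an older name. The 45 member probes covered 38 genes.

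The members, lists, pairs and tests were chosen with earlier results of these data known. Genes given in full were the members past the threshold and the 3 others with the widest difference. Of each other list up to 3 genes with the smallest p were named, and the 5 genes outside the list most like Wfdc17 were sought. Further genes were named after their values were seen. Scripts were tested on simulated data. A few genes that the naming rule selects are not reported here. Alternatives were normexp, quantile and median scaling, the deposited table, other filters, blocks and fits, each animal left out, and a threshold of 0.1. Each array holds a separate animal, and the number of arrays limits the precision. Correlations and figures used Python 3.11.15, scipy 1.17.1 and matplotlib 3.10.9.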

Additional observations from a re-analysis of the deposited data

Results flagged for a closer look

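In 5 of 64 groups of 8 animals examined (32 genes in each group), 1 animal stood apart from the rest by Dixon's test, and chance alone gives about 1 in 20. In KO chimeras, KO chimera 2 was highest in Plac8 at −2.23, with the next animal at −3.74. KO chimera 1 was lowest in Fcgr1 at −3.62, with the next at −2.98, and in Fcgr4 at −5.00, with the next at −4.17. KO chimera 1 was also the array with the fewest spots above background, 27276. The part of that array's depth in these 2 values was not tested. In controls, control 6 was highest in Cd68 at 0.98, with the next animal at 0.53, and in Cyba at 1.64, with the next at 1.31.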

How the results depend on the processing

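Among all genes and members, the numbers called were 925 and 6 as reported. Normexp gave 255 and 3 (Cd68, Emilin2 and Wfdc17), quantile normalization 527 and 6, median scaling 4200 and 9, the values deposited by the authors gave 535 and 7, no filter on dim probes 594 and 5 of 38, probes above background on all arrays 1245 and 2 of 11, the mean of all probes of a gene 750 and 5, the slide as a fixed block 477 and 4, and a threshold of 0.1 2019 and 7. Within scan day 1, with 4 animals a group, limma called 0 genes and 0 members (2838 and 11 at an unadjusted p under 0.05), and within day 2, 7 genes and 0 members (3433 and 8 unadjusted). Leaving out each animal gave 361 to 1028 genes and 5 to 8 members. Higher calls numbered 250 of 925 as reported, 25 of 255 with normexp and 176 of 4200 with median scaling, which moved the median of all genes by −0.13. Of 971 differences of single members under these alternatives 957 moved by less than the spread between animals, and 0 called members changed sign. That count is no measure of stability, since many of these differences could not move further. Leaving out a single animal shifts a group mean by less than that spread. The scan day and replicate blocks return the same differences as reported. The 14 differences that moved by more than the spread included called members with normexp. These were Wfdc17 at −1.16, Itgax at −0.38, Ccl6 at −0.22 and Rab7b at −0.14. The median over members ran from −0.42 (deposited table) to −0.07 (normexp). Of 32 members, 27 were on the low side as reported, 20 with normexp, 21 within scan day 2 and 30 with quantile normalization. The larger SD lay in controls for 19 members as reported and for 18 to 19 with normexp, quantile normalization and the deposited table. With normexp 7 members had at least 2 times the SD in controls (2.36% of all genes), and controls 1 and 2 were the lowest in 8 (2.67%).

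Correlations turned sign in KO chimeras for Itgax and Clec7a (0.93 with normexp, 0.54 without the 2 farthest animals), for Wfdc17 and Ms4a7 (−0.0005 with normexp) and for Lyz1 and Lyz2 (−0.12 with day means removed, a setting chosen after seeing the data). In controls they turned for Cyba and Cybb (−0.14 with normexp, −0.69 without 2 animals) and for Cd68 and Ptprc (0.38 without 2 animals). Wfdc17 and Ms4a7 in controls lost its call without 2 animals (0.92), and Ccl6 and Ccl9 in controls passed with normexp (0.88). With the replicate block 791 genes and 5 members were called. Animals of the same number correlated at −0.08 to 0.24 and only numbers 6 and 8 matched best with their own. Such correlations cannot decide whether the numbers pair the animals, and the labels state no pairing. Counts within single slides were not run, since most hold 1 animal of a group. The dim end limits these genes: for Itgax and Wfdc17 most or many KO chimera values lie at background. The causes of the changes named here were not tested.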
